A study of Mus musculus with 41 samples.

Results

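Foxa2 and Runx2 were mapped in the same cell type, rib chondrocytes of newborn mice, and the comparison here is between all 14738 listed Foxa2 peaks and all 15390 listed Runx2 peaks of these cells. Together these are 30128 of the 155773 peaks in the 8 deposited lists of the series. No peak was left out and no measured value chose the members. A Foxa2 peak and a Runx2 peak were called shared when they had 1 bp or more in common, and the other peaks of either list were called private.

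Foxa2 was immunoprecipitated from wild-type C57BL/6 rib chondrocytes at postnatal day 1 (1 ChIP-seq library, with 1 IgG control). Runx2 was recovered by its FLAG tag from rib chondrocytes of heterozygous Runx2-BioFL/+ knock-in mice of the same strain and age (2 libraries, with 2 inputs), in which 1 allele carries the tag. The Foxa2 and Runx2 libraries therefore differ in antibody, genotype and control as well as in the factor, and these cannot be told apart. The labels name no sort of these cells, so resting, proliferating and hypertrophic chondrocytes are not separated. The other lists include Runx2 in calvarial osteoblasts of Runx2-BioFL/+ mice and Jun in wild-type calvarial osteoblasts, both at postnatal day 1. The rest are FLAG precipitations of 3T3 fibroblasts that overexpress Runx2BioFL or GFP before osteogenic medium (day 0) and after 3 days in it. Of the 3T3 lists, the labels cross the list named for Runx2 day 0 with that named for GFP day 3, and both are used under their list names only.

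Foxa2 is a forkhead transcription factor that can bind its sites in closed chromatin, and in mice it acts together with Foxa3 in the maturation of chondrocytes to the hypertrophic state. Runx2 binds DNA through its Runt domain with the partner Cbfb. It is required for osteoblast formation, and in growing cartilage it promotes hypertrophy. Jun, used here for comparison, is a subunit of the AP-1 factor.

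Each factor has 1 list with no score and no replicate list, so no value below has a replicate error and no test between samples was possible. Intervals in parentheses are 95% Wilson intervals for shares and order-statistic intervals for medians. These intervals reflect counting error alone, while neighbouring peaks depend on each other. Read depth is unknown. Positions are those of mm9 as deposited. A genome sequence and a gene annotation of that build were not used here, so sites are given by position and without gene names or sequence.

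About 1 in 5 sites of either factor was also a site of the other. Of the Foxa2 peaks, 2837 of 14738 overlapped a Runx2 peak, which is 19.2% of the list (18.6 to 19.9%), and 11901 were private. Of the Runx2 peaks, 2818 of 15390 overlapped a Foxa2 peak, which is 18.3% (17.7 to 18.9%), and 12572 were private. In the wider 50% of each list the shares were 11.7% of Foxa2 and 11.1% of Runx2 peaks. Both lists were then shorter and held fewer possible partners, so this is not a result about width. A comparison chosen after seeing the data left out peaks in the GFP day 0 list or the list named for Runx2 day 0. The shares were then 16.1% of 13674 Foxa2 peaks and 27.8% of 7867 Runx2 peaks. Since 1 of these lists is named for Runx2, 27.8% is not a corrected share. The sharing was almost entirely of single peaks with single peaks. Among shared Foxa2 peaks 2828 had 1 Runx2 partner and 9 had 2, and among shared Runx2 peaks 2791 had 1 Foxa2 partner, 26 had 2 and 1 had more. Joining all overlapping intervals gave 27164 separate sites, of which 2808 (10.3%) held both factors, 11838 Foxa2 alone and 12518 Runx2 alone.

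The overlap was usually deep. In the 2846 overlapping pairs the common stretch had a median of 88 bp (quartiles 59 and 113 bp) and covered a median of 85.1% of the shorter peak. The Foxa2 peak lay wholly inside the Runx2 peak in 566 pairs (19.9%), the Runx2 peak lay wholly inside the Foxa2 peak in 368 (12.9%), and the other 1912 (67.2%) overlapped in part. At the edge of the rule, 228 pairs overlapped by 1 to 25 bp, 144 pairs of peaks were separated by 0 to 24 bp, and 102 by 25 to 49 bp. Shared peaks were slightly wider than private ones in both lists. The median width was 124 bp for shared and 119 bp for private Foxa2 peaks, and 141 bp for shared and 134 bp for private Runx2 peaks. A wider peak meets the 1 bp rule more easily, so the rule itself favours this difference.

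The centres of the 2 peaks of a pair lay close together without coinciding. The distance between centres had a median of 44.5 bp (43 to 46.5 bp), with quartiles of 21.5 and 81.5 bp. It was at most 50 bp in 54.9% of the pairs and at most 100 bp in 82.9%. The Foxa2 centre had the higher coordinate in 1446 pairs and the lower in 1393, with 7 ties, and the signed distance (Foxa2 minus Runx2) had a median of 1.5 bp. The lists give no strand, so this says nothing of an order of the factors relative to a motif or a gene. The distance was similar along the files: the median was 39.5 bp (35.5 to 42.5 bp) for the 704 pairs from the first decile of the Foxa2 list and 48.5 bp (32.5 to 68 bp) for the 105 pairs from the last decile.

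**Figure D1:**
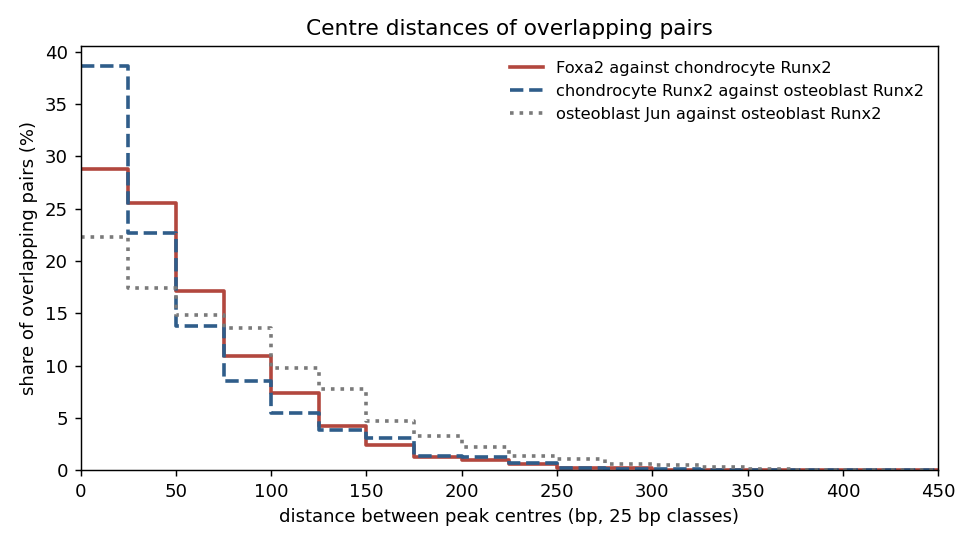
Distance between peak centres (x axis, bp, in 25 bp classes) as a share of overlapping pairs (y axis, %) for Foxa2 against chondrocyte Runx2 (2846 pairs, solid), chondrocyte against osteoblast Runx2 (4643 pairs, dashed) and osteoblast Jun against osteoblast Runx2 (2663 pairs, dotted). Foxa2 lies between the other curves in the first class, with medians of 44.5, 35.5 and 66.5 bp.

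Other pairs of lists give this distance a scale. Chondrocyte Runx2 against osteoblast Runx2, the same factor in another cell type, had a median of 35.5 bp (33.5 to 37 bp), and osteoblast Jun against osteoblast Runx2 had 66.5 bp (64 to 70 bp). Peak widths differ between these pairs, with medians of 124 and 141 bp for Foxa2 and its Runx2 partners, 130 and 179 bp for the Runx2 lists, and 140 and 201 bp for Jun and its Runx2 partners. In a fixed window, with all pairs whose centres lay within 250 bp, the medians were 52.5 bp for Foxa2 (50 to 54.5 bp), 36.5 bp for Runx2 against Runx2 (35 to 39 bp) and 79.5 bp for Jun (75.5 to 83 bp). The order was the same and the intervals did not overlap. The comparison can also be made at the same site. In 413 triples of a Foxa2, a chondrocyte Runx2 and an osteoblast Runx2 peak, the chondrocyte Runx2 centre had a median distance of 48 bp to Foxa2 and 29.5 bp to osteoblast Runx2. The osteoblast Runx2 centre was the nearer in 243 triples, the Foxa2 centre in 163, and 7 were tied.

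Beyond overlap, the number of Foxa2 and Runx2 centres per kb of separation dropped steeply and then slowly. Within 100 bp there were 2375 centre pairs, or 23750 per kb, which is 97.0 times the 245 per kb counted between 500 and 1000 kb. The ratio was 28.4 from 100 to 200 bp, 10.2 from 200 to 300 bp, 4.99 from 500 to 1000 bp and 3.12 from 1 to 2 kb. From there it declined slowly, with 2.13 between 5 and 10 kb, 1.71 between 20 and 50 kb and 1.32 between 100 and 200 kb.

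**Figure D2:**
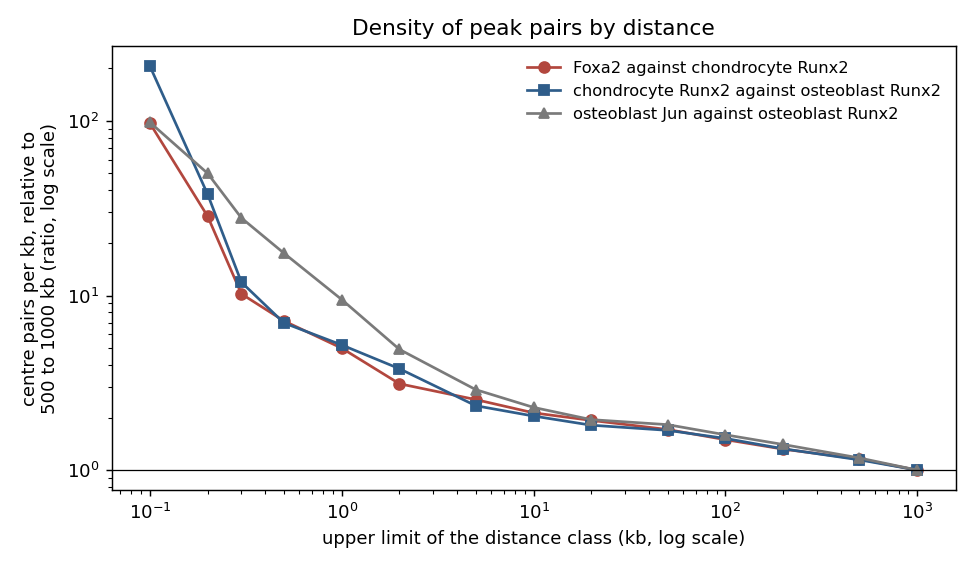
Centre pairs per kb, divided by the value between 500 and 1000 kb (y axis, ratio, log scale), against the upper limit of the distance class (x axis, kb, log scale) for Foxa2 with chondrocyte Runx2, chondrocyte with osteoblast Runx2, and osteoblast Jun with osteoblast Runx2. In the class up to 0.5 kb the ratio is 7.15 for Foxa2, 6.96 for Runx2 with Runx2 and 17.5 for Jun.

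The shape differed from that of Jun. The ratio within 100 bp was 97.0 for Foxa2 with chondrocyte Runx2 and 98.2 for Jun with osteoblast Runx2. It was 28.4 for Foxa2 and 50.1 for Jun from 100 to 200 bp, and 10.2 for Foxa2 and 27.8 for Jun from 200 to 300 bp. From 300 to 500 bp it was 7.15 for Foxa2 and 17.5 for Jun, and from 500 to 1000 bp 4.99 for Foxa2 and 9.48 for Jun. The ratios were thus close within 100 bp and lower for Foxa2 in each class between 100 and 1000 bp. Runx2 of the other cell type reached 206 within 100 bp and 6.96 from 300 to 500 bp. These ratios have no replicate error, and the difference was not tested.

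Private peaks lay at widely varied distances from the other factor. The nearest peak of the same list was a median of 22.6 kb away for all Foxa2 and 21.1 kb for all Runx2 peaks. Private peaks exclude overlapping ones by definition, which lengthens their distances to the other factor. The 2 kinds of distance are therefore not alike and were not compared. The nearest Runx2 peak lay a median of 27.3 kb from a private Foxa2 peak (quartiles 6.93 and 83.2 kb), and the nearest Foxa2 peak lay 30.0 kb from a private Runx2 peak (quartiles 8.16 and 79.2 kb). Within 1 kb of the other factor were 1157 private Foxa2 peaks (9.72%) and 964 private Runx2 peaks (7.67%). Within 10 kb were 30.1% of the private Foxa2 and 28.0% of the private Runx2 peaks. More than 100 kb away, or on a chromosome without the other list, were 21.7% of private Foxa2 and 19.6% of private Runx2 peaks. The far tail was longer for Foxa2. More than 500 kb from any peak of the other list were 403 private Foxa2 peaks (3.39%) and 168 private Runx2 peaks (1.34%), and another 46 Foxa2 peaks lay on the Y chromosome, where the Runx2 list has none.

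Sharing of Foxa2 sites varied with the position of the peak in its file. The files are sorted neither by position nor by width, and the sources used here do not say what set their order. Of the first 100 Foxa2 peaks 70 overlapped Runx2 (60.4 to 78.1%), and of the first 1000 peaks 51.8% did (48.7 to 54.9%). By deciles of the list (10 equal parts in file order) the share was 47.8% in the first (45.2 to 50.3%), 32.8% in the second, 24.5% in the third, 16.4% in the fifth and 7.06% in the last (5.86 to 8.48%). It was lower in each decile than in the one before. The first 50% of the list held 73.7% of all shared Foxa2 peaks.

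The Runx2 list behaved differently. The share with Foxa2 was 30.4% in its first decile (28.2 to 32.8%), 21.9% in the second and 17.7% in the third, and from there to the last decile it stayed between 15.1 and 17.7%. Thus late Runx2 peaks overlapped Foxa2 about as often as those in the middle of the list, and late Foxa2 peaks overlapped Runx2 less often than those in the middle. The share was not higher at the very start of the Runx2 list. Of the first 100 Runx2 peaks 27 overlapped Foxa2 (19.3 to 36.4%), against 179 of the first 500 (35.8%, 31.7 to 40.1%). Of those first 100 Runx2 peaks, 37 were also in the GFP day 0 list, against 0 of the first 100 Foxa2 peaks. Among the 63 that were not, 21 overlapped Foxa2 (33.3%, 22.9 to 45.6%), against 173 of 440 such peaks in the first 500 (39.3%, 34.9 to 44.0%). The first 100 are part of the first 500, and in both comparisons the intervals overlap. Width also changed along both files. The median was 110 bp in the first and 139 bp in the last decile of the Foxa2 list, and 124 and 155 bp in those of the Runx2 list. The part of width in the shares by file order was not tested.

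**Figure D3:**
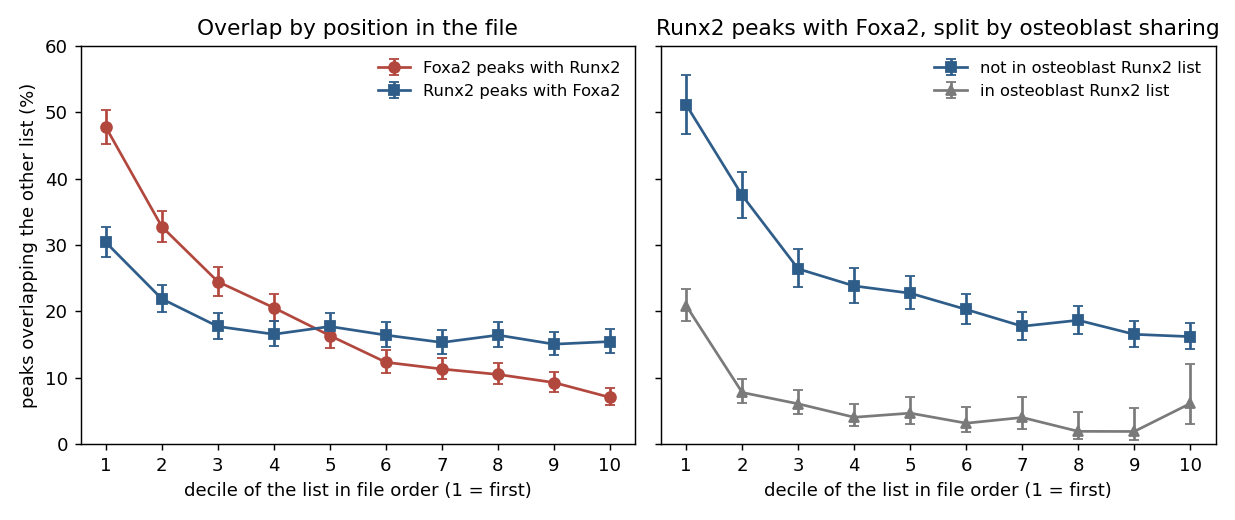
Left, share of Foxa2 peaks with Runx2 and of Runx2 peaks with Foxa2 (y axis, %) by decile of each list in file order (x axis), with 95% Wilson intervals. Right, share of Runx2 peaks with Foxa2 in the same deciles, for peaks outside and inside the osteoblast Runx2 list. Foxa2 runs from 47.8% in its first decile to 7.06% in its last, and Runx2 from 30.4 to 15.5%.

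The Runx2 curve was the sum of unlike parts. Early chondrocyte Runx2 peaks are mostly those also listed in osteoblasts, with 1054 of the 1539 peaks in the first decile and 114 of 1539 in the last. Among the first-decile Runx2 peaks outside the osteoblast list, 248 of 485 overlapped Foxa2 (51.1%, 46.7 to 55.6%), against 220 of the 1054 within it (20.9%, 18.5 to 23.4%). In the fifth decile the shares were 22.8% outside and 4.68% within the osteoblast list, and in the last decile 16.2% and 6.14%. In the first decile of the Foxa2 list, 550 of 1286 peaks outside the osteoblast Runx2 list overlapped chondrocyte Runx2 (42.8%, 40.1 to 45.5%), and 154 of 188 within it (81.9%, 75.8 to 86.8%). Foxa2 peaks within the osteoblast list lie on a Runx2 site by definition, so a high share is built into that class. For Runx2 peaks, shares with Foxa2 were higher outside the osteoblast list in all 10 deciles.

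Within pairs, the 2 positions went together loosely. Both peaks were in the first decile of their lists in 224 of the 2846 pairs and both in the last in 19, with 22 pairs of a first-decile Foxa2 and a last-decile Runx2 peak and 4 of the reverse. Both peaks came from the first 50% of their lists in 45.7% of the pairs and both from the second 50% in 15.0%. An early Foxa2 peak with a late Runx2 peak was found in 28.0% and a late Foxa2 peak with an early Runx2 peak in 11.3%. The first 50% held 73.7% of all shared Foxa2 and 57.0% of all shared Runx2 peaks. These pair shares therefore reflect in part where shared peaks lie in each list alone. Spearman's rho between both file positions was 0.33 across the 2846 pairs, given as a description since pairs share neighbourhoods and libraries.

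**Figure D4:**
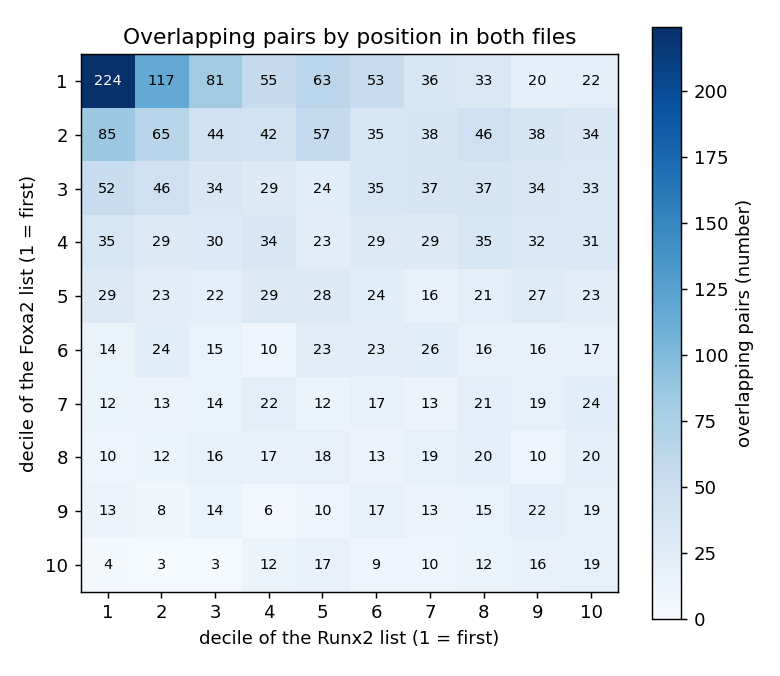
Number of overlapping pairs (shade and printed number) by the decile of the Foxa2 list (rows, first at the top) and of the Runx2 list (columns, first at the left) in file order. The corner of both first deciles holds 224 of the 2846 pairs and the corner of both last deciles 19.

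The earliest pair by summed file position joined the Foxa2 peak chr10:68439320-68439570 (position 8 in its file) and the Runx2 peak chr10:68439503-68439681 (position 74). Their centres were 147 bp apart, and both were also in the osteoblast Runx2 and both 3T3 Runx2 lists by name. In the next pair, the Runx2 peak chr13:29200176-29200288 (position 34) lay inside the Foxa2 peak chr13:29200162-29200288 (position 94), with centres 7 bp apart. The third joined the Foxa2 peak chr3:122767321-122767428 (position 2) and the Runx2 peak chr3:122767323-122767447 (position 137), with centres 10.5 bp apart. Both of these sites recurred in the osteoblast Runx2 list and in no other. At the other extreme, the overlapping pair with the most distant centres had Foxa2 at chr17:63090590-63090962 and Runx2 at chr17:63090283-63090603. Its centres were 333 bp apart with 14 bp in common.

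The first 3 private peaks of each list are given as examples. The first 3 private Foxa2 peaks, chr4:137423314-137423406, chr9:3032409-3032442 and chr4:70039191-70039243, lay at 13.4, 303 and 32.2 kb from the nearest Runx2 peak. None of them was in any of the 6 other lists, as held for 90.2% of all private Foxa2 peaks. The peak on chromosome 9 was 34 bp wide and lay in a 37.1 kb domain of 77 Foxa2 peaks, chr9:3001163-3038231. No filter for repeat regions was applied here. The first 3 private Runx2 peaks were chr9:21754919-21755015, chr19:4989134-4989224 and chr7:6362911-6363009. Each of them recurred in the lists of osteoblast Runx2, Jun and GFP day 0 and in the list named for GFP day 3. Those on chromosomes 9 and 7 were also in the 3T3 Runx2 day 3 list and the list named for Runx2 day 0. Of all private Runx2 peaks, 33.5% were in the osteoblast Runx2 list and 20.6% in the Jun list. GFP day 0 held 3.40% of them and the list named for GFP day 3 held 16.5%. By name, the GFP lists are FLAG precipitations of cells without tagged Runx2.

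Shared and private sites differed in where else they were listed, and the direction was opposite from either side. Foxa2 peaks with Runx2 were more often in the other Runx2 lists than Foxa2 peaks without it. In the osteoblast Runx2 list, which overlapped 3.48% of all Foxa2 peaks, were 388 of 2837 Foxa2 peaks with Runx2 (13.7%, 12.46 to 14.99%) and 125 of 11901 without (1.05%, 0.882 to 1.25%). For 3T3 Runx2 at day 3, which overlapped 10.8% of all Foxa2 peaks, the shares were 27.5% (25.9 to 29.2%) with and 6.80% (6.36 to 7.26%) without Runx2. For the list named for Runx2 day 0, with 7.08% of all Foxa2 peaks, they were 20.6% and 3.86%. Jun overlapped 1.87% of all Foxa2 peaks, with 4.83% (4.10 to 5.68%) with and 1.16% (0.982 to 1.37%) without Runx2. Since Foxa2 peaks with Runx2 lie on a Runx2 site by definition, a higher share in other Runx2 lists is built into the class. The same holds for Jun, which overlapped 17.8% of all chondrocyte Runx2 peaks.

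Few Foxa2 peaks were in the GFP lists. GFP day 0 has 2475 peaks and the list named for GFP day 3 has 16799, against 50180 for 3T3 Runx2 day 3. Longer lists hold more possible partners, so shares in different lists are not on an equal footing. GFP day 0 overlapped 0.224% of all Foxa2 peaks, with 12 of those with Runx2 (0.423%) and 21 of those without (0.176%). The list named for GFP day 3 overlapped 0.665%, with 20 (0.705%) and 78 (0.655%). For the list named for GFP day 3 the difference of shares had an interval from -0.25 to 0.45 percentage points.

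From the other side, Runx2 peaks with Foxa2 were less often in every other list than Runx2 peaks without it. In the osteoblast Runx2 list, which overlapped 29.9% of all chondrocyte Runx2 peaks, were 402 of 2818 Runx2 peaks with Foxa2 (14.3%, 13.02 to 15.61%) and 4206 of 12572 without (33.5%, 32.6 to 34.3%). The list named for Runx2 day 0 overlapped 48.2% of all Runx2 peaks, with 21.8% (20.3 to 23.3%) of those with Foxa2 and 54.2% (53.3 to 55.0%) of those without. The whole-list shares were 52.7% for 3T3 Runx2 at day 3 and 17.8% for Jun, and both were lower with Foxa2 by 29.6 and 15.2 percentage points. GFP day 0 overlapped 2.86% of all Runx2 peaks, with 0.426% with and 3.40% without Foxa2. The list named for GFP day 3 overlapped 13.6% of all Runx2 peaks and was likewise lower with Foxa2, by 15.7 points.

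These contrasts were also taken within deciles of the files, because both sharing and recurrence vary along them. For Jun, Foxa2 peaks with Runx2 had the higher share in 9 of 10 deciles, though the class itself favours this, as said above. Runx2 peaks with Foxa2 had the lower share in 10 of 10 deciles for osteoblast Runx2, Jun and 3T3 Runx2 at day 3. Peaks in none of the 6 other lists made up 84.8% of all Foxa2 and 32.5% of all Runx2 peaks. They were 62.3% of the Foxa2 peaks with Runx2 (60.5 to 64.0%) and 90.2% of those without (89.6 to 90.7%). Likewise they were 61.2% of the Runx2 peaks with Foxa2 (59.4 to 63.0%) and 26.0% of those without (25.3 to 26.8%). The Foxa2 contrast is in part built into the class, since the 6 lists include lists of Runx2.

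**Figure D5:**
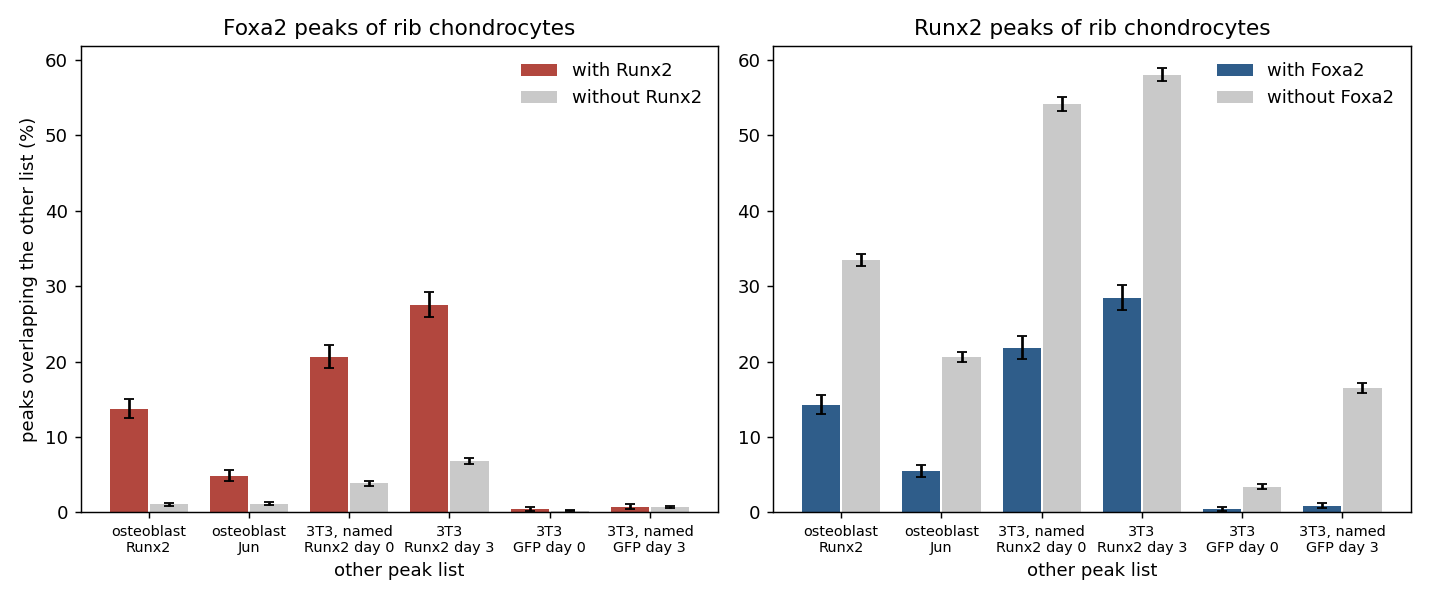
Share of peaks (y axis, %, with 95% Wilson intervals) that overlap each of the 6 other lists (x axis), for Foxa2 peaks with and without Runx2 (left) and for Runx2 peaks with and without Foxa2 (right). In the osteoblast Runx2 list are 13.7% of Foxa2 peaks with Runx2 and 1.05% without, and 14.3% of Runx2 peaks with Foxa2 and 33.5% without.

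Domains were formed by joining all peaks of both lists across gaps of up to 12500 bp, which gave 18276 domains, 12021 of them a single peak. Foxa2 alone occupied 6629 domains (36.3%) with 52.1% of its peaks, and Runx2 alone 7104 (38.9%) with 54.1% of its peaks. The other 4543 domains (24.9%) held both factors. In 2520 of these at least 1 pair overlapped, and in 2023 the factors lay in the same domain without touching. Domains without an overlapping pair held 18.6% of the Foxa2 and 18.6% of the Runx2 peaks and had a median length of 6.57 kb, against 0.892 kb for domains with an overlapping pair. Of the private peaks, 35.5% of Foxa2 (34.7 to 36.4%) and 33.8% of Runx2 (32.9 to 34.6%) lay in a domain with the other factor. These shares follow the allowed gap. They were 22.0% for Foxa2 and 20.1% for Runx2 with gaps of up to 5 kb, and 67.4% and 69.0% with gaps of up to 50 kb.

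Domains with more peaks of one factor more often held the other, except for the domains with the most Foxa2 peaks. Runx2 was present in 33.9% of domains with 1 Foxa2 peak, 61.5% with 2, 79.5% with 3 to 4 and 94.6% with 5 to 9, but in 5 of the 11 domains with 10 or more. Foxa2 was present in 33.2% of domains with 1 Runx2 peak, 54.8% with 2, 70.8% with 3 to 4 and 91.8% with 5 to 9. Domains with more peaks are also longer, so these shares need not reflect density. Shares were also counted per peak. Of Foxa2 peaks, 16.9% (16.1 to 17.6%) were shared where the domain had 1 Foxa2 peak, 27.3% (23.6 to 31.2%) where it had 5 to 9, and 13 of 228 (5.70%, 3.36 to 9.51%) where it had 10 or more. Of Runx2 peaks, 17.0% (16.3 to 17.8%) were shared where the domain had 1 Runx2 peak, 21.4% (18.16 to 25.02%) where it had 5 to 9, and 17.7% (11.4 to 26.5%) where it had 10 or more.

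Repeated overlap in a single domain was rare, with 280 domains of 2 or more overlapping pairs and 41 of 3 or more. The domain with the most lay at chr6:52113842-52171864 (58.0 kb), with 16 Foxa2 peaks, 10 Runx2 peaks and 5 overlapping pairs. None of its Runx2 peaks was in the osteoblast list, which overlapped 29.9% of all chondrocyte Runx2 peaks and 14.3% of those with Foxa2. The same stretch held 27 peaks of 3T3 Runx2 day 3, 14 of the list named for Runx2 day 0, 15 of that named for GFP day 3, 3 of GFP day 0 and 1 of Jun. Domains with 4 pairs lay at chr3:57333391-57359797 (7 Foxa2 and 5 Runx2 peaks), at chr6:8702974-8721254 (6 and 4) and at chr7:124614142-124661590 (7 and 10). Of the Runx2 peaks in these 3 domains, 3 were in the osteoblast list, all on chromosome 7. These domains were picked for their pairs, and such small counts were not tested against the shares above. The fifth domain named, at chr1:71798931-71804196, had 3 pairs, as did 37 domains in all. It packed 5 Foxa2 and 4 Runx2 peaks into 5.27 kb.

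Other domains held several peaks of both factors without any overlap. At chr13:114383753-114421006, 5 Foxa2 and 5 Runx2 peaks lay in 37.3 kb with no pair in common. The domain chr10:82557188-82581675 held 5 Foxa2 and 4 Runx2 peaks, and chr10:92724214-92776364 held 4 Foxa2 and 6 Runx2 peaks. Domains of Runx2 alone were small. The largest had 6 peaks at chr1:167560329-167574127, and those named next had 5 peaks each, at chr1:136911864-136918909 and at chr10:119857873-119867756.

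Across the 19 autosomes the shared fraction ranged from 17.9 to 21.5% of Foxa2 peaks and from 15.3 to 22.6% of Runx2 peaks. For Runx2 the highest share was 22.6% on chromosome 14 (19.3 to 26.2%). The lowest were 15.4% on chromosome 4 (13.3 to 17.7%) and 15.3% on chromosome 11 (13.4 to 17.6%). These were picked as extremes of the 19 autosomes, so their intervals do not serve to compare them. The ratio of Foxa2 to Runx2 peaks ranged from 0.792 on chromosome 7 to 1.15 on chromosome 14, and 9 autosomes had more Foxa2 than Runx2 peaks. On chromosomes 4 and 11 this ratio was 0.803 and 0.817. The X chromosome stood lower for Foxa2, with 21 of 211 peaks shared (9.95%, 6.60 to 14.7%), and 21 of its 161 Runx2 peaks were shared (13.04%, 8.69 to 19.1%). Chromosomes are not replicates, and these values are descriptions.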

How the data were processed

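The authors deposited each peak list as chromosome, start and end, without a score, height or p-value. Per the submitters' processing notes the build was mm9, and the tools named, with no step, are Bowtie and DiffBind. The peak caller, threshold, versions, and whether the 2 Runx2 libraries were pooled are not given in the sources used here. Members, domains and comparisons were chosen with earlier results of these data known. Overlaps of 1 bp or more were counted in Python 3.11.15 with pandas 2.3.3 and NumPy 2.4.6, and intervals came from SciPy 1.17.1. Overlap counts for 14 pairs of lists were checked against bedtools 2.31.1, and 0 differed. The code was tested on simulated lists. A peak's centre is the midpoint of its interval. Printed starts are 1-based. Deciles follow the line order of each file. Domains join peaks of both lists across gaps of up to 12500 bp. No p-value was computed, because each factor has 1 list. The planned look at motifs and nearest genes was not run, since the gene table at hand is of GRCm38.p6. Named regions are the 3 earliest pairs by summed file position, pairs with the most distant centres, the first 3 private peaks of each list, and the domains with most pairs (5), most peaks of both lists without a pair (3) and most peaks of a single list (3 each), with ties taken in chromosome name order and then by position.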

Additional observations from a re-analysis of the deposited data

How the results depend on the processing

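The difference between the first and last deciles kept its sign in all 13 alternatives run for it. The other results are shares and distances, which have no sign. Of 57 values under an alternative, 23 stayed within the counting interval of the reported value and 34 did not. The share of Foxa2 peaks with Runx2 was 15.8% when 50% of the shorter peak had to overlap, 21.8% with centres within 250 bp, 16.2% within 100 bp and 20.8% with all peaks set to 200 bp. It was 17.6% in the first 50% of each list, 11.7% in the wider 50%, and 18.6% with Runx2 reduced to the length of the Foxa2 list. The share of Runx2 peaks with Foxa2 was 15.1%, 20.6%, 15.5% and 19.8% under the first 4 settings, then 16.8% in the first 50% and 11.1% in the wider 50%. Shorter lists hold fewer partners. Without peaks in either list named for GFP it was 21.2%. Without peaks in GFP day 0 or the list named Runx2 day 0 (crossed lists exchanged, chosen after seeing the data), Foxa2 was at 16.1% and Runx2 at 27.8%. The median centre distance was 35.5 bp with 50% overlap, 49 bp at 200 bp width, 41.5 bp in the first 50% and 53 bp in the wider 50%. Private peaks in a domain with the other factor were 22.0% (Foxa2) and 20.1% (Runx2) at gaps of up to 5 kb, 67.4% and 69.0% at 50 kb, 23.99% and 21.40% in the first 50%, and 33.1% and 35.9% without peaks in the GFP lists.

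The first minus the last decile of the Foxa2 list was 40.7 percentage points as reported, 33.6 with 50% overlap, 45.0 with centres within 250 bp and 44.4 at 200 bp width. For the Runx2 list it was 14.9 as reported, 11.2 with 50% overlap, 20.5 without peaks in the GFP lists, and 27.9 among Runx2 peaks outside the osteoblast list (chosen after seeing the data, with deciles taken anew). No paired analysis was possible because each factor has 1 list, and for the same reason no replicate could be left out. Depth is unknown, so list length may limit every share.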

Other observations

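The domains with the most Foxa2 peaks were split by the presence of Runx2. Of 11 domains with 10 or more Foxa2 peaks, 5 also held Runx2 and 6 held none, with 157 Foxa2 peaks (1.07% of the list). The largest lay at chr9:3001163-3038231, where 77 Foxa2 peaks stood within 37.1 kb, and no other list had a peak there. Next were 31 peaks at chrY:2849135-2901693 and 14 at chr2:34608922-34637696. The stretch on chromosome 2 also held 3 peaks of GFP day 0, 6 of the list named for GFP day 3, 2 of that named for Runx2 day 0, 4 of 3T3 Runx2 day 3 and 2 of Jun. In the 6 domains without chondrocyte Runx2 there were 0 peaks of osteoblast Runx2, 2 of Jun, 7 of the list named for Runx2 day 0, 4 of 3T3 Runx2 day 3, 4 of GFP day 0 and 6 of the list named for GFP day 3. Without these 157 peaks the share of Foxa2 peaks with Runx2 was 19.5%.

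On chromosome Y the Foxa2 list had 46 peaks, Jun 2 and the other 6 lists 0. None of the 46 overlapped another list, and 1 was in the first decile of the file.

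The domain of both factors with the most peaks lay at chr19:5771182-5848683 (77.5 kb), with 22 Foxa2 and 12 Runx2 peaks and 1 overlapping pair. Within it were 53 peaks of 3T3 Runx2 day 3, 42 of the list named for Runx2 day 0, 18 of GFP day 0, 8 of the list named for GFP day 3, 18 of Jun and 6 of osteoblast Runx2.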
